A study of Mus musculus with 20 samples.

Results

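Pluripotent cells that had arisen from adult germline stem cells were set against embryonic-stem-cell-like cells that had arisen from newborn testis. The comparison used 8 of the 20 mouse arrays of the study: the 5 arrays titled as gPS cells and the 3 titled as ESC-like cells, chosen by their titles. All 18193 genes with a probe set of a single gene symbol entered it, each through the probe set of highest mean across the 20 arrays. The study asked whether unipotent germline stem cells of adults can become pluripotent in culture.

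The gPS cells (5 arrays) came from germline stem cells of OG2 mice, which carry green fluorescent protein under the Oct4 promoter on a B6;CBA background. About 1000 of those cells per well had been plated on mouse embryonic fibroblasts in germline stem cell medium, colonies appeared within 3 to 4 weeks, and their cells were then expanded on fibroblasts in conditions for embryonic stem cells. The ESC_like cells (3 arrays) had been derived in another laboratory from testes of mice aged 0 to 2 days and were grown on fibroblast feeders with leukemia inhibitory factor (LIF). The 4 other groups of 3 arrays each served as landmarks. They were embryonic stem cells of the RW4 line on feeders with LIF (ESC), germline stem cells of OG2 testes on fibroblasts (GSC), neural stem cells differentiated from an Olig2-GFP line (NSC), and fibroblasts of C3H embryos at mid-gestation (MEF). Fibroblasts thus lay under both gPS and ESC_like cells. The labels give neither the strain of the ESC_like cells nor separate cultures for the arrays of a group, so the p-values measure the spread between these arrays, and laboratory, strain and donor age cannot be told apart from the cell type.

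Male germline stem cells self-renew in the testis and normally make only sperm, yet they express Pou5f1, which encodes Oct4, and in culture some of their descendants take on the growth and gene expression of embryonic stem cells. Mouse embryonic stem cells are held in a naive state by LIF, which acts through Stat3, and by bone morphogenetic proteins (BMPs), which act through Smad and Id proteins, while FGF and Nodal signalling lead towards the primed state of the later epiblast. Germ line genes are silenced in most other cells, often through methylation of promoters rich in CG.

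Levels are log2 intensities after RMA (robust multi-array average), and every difference is gPS minus ESC_like on the log2 scale, with limma's standard error (SE). A gene was called where limma's Benjamini-Hochberg adjusted p was under 0.05 and the difference at least 2-fold, and only such genes are said to have risen or fallen in gPS cells. At these settings 882 of 18193 genes (4.85%) were called. In gPS cells 202 genes (1.11%) were higher and 680 (3.74%) were lower. The gPS and ESC_like arrays did not overlap in 29.1% of all genes and in 839 of the 882 called genes. The median difference over all genes was 0.09, and the median of all values was 4.98. Levels around or below that median may not exceed background, and differences that start there are of uncertain size.

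The groups differed in spread as well as in level. Pairs of gPS arrays correlated across genes at r = 0.976 to 0.993, pairs of ESC_like arrays at 0.996 to 0.998, and pairs with 1 array of each group at 0.966 to 0.976. Over the 7595 genes with a group mean above 7, the median SD was 0.242 among gPS arrays and 0.102 among ESC_like arrays. In gPS cells 229 genes had a range of 2 log2 units or more between arrays, and in ESC_like cells 0 genes did. The fitted spread is shared by all groups, so it is an average over groups that vary unequally.

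Much of the list of lower genes was made of genes that fibroblasts express. The share of the MEF level, which puts each array between ESC at 0% and MEF at 100% on 46 fibroblast genes, was 2.37, 5.36, 2.39, 2.88 and 2.25% in gPS replicates 1 to 5, against 10.47, 11.84 and 12.52% in ESC_like replicates 1 to 3. All gPS arrays lay below all ESC_like arrays, by 8.56 percentage points on average, and replicate 2 was the highest of the gPS arrays (two-sided exact permutation test, p = 0.0357, the smallest that 56 splits allow). In these bulk samples fewer fibroblasts and less fibroblast RNA per cell cannot be told apart. A gene was therefore marked as high in MEF where its MEF mean was at least 4-fold above its ESC mean, a mark that uses no array of the comparison. Among the 1015 marked genes 343 (33.8%) were lower in gPS cells and 1 (0.0985%), Plac8, was higher. Among the 17178 other genes 337 (1.96%) were lower and 201 (1.17%) were higher. Marked genes had a median difference of -0.72 and the others 0.11.

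The 5 gPS arrays correlated with the ESC arrays at a mean r of 0.972 ± 0.0035 (SD, n = 5), the 3 ESC_like arrays at 0.964 ± 0.0014 (SD, n = 3), and the groups did not overlap (exact permutation test, p = 0.0357). Without the genes marked as high in MEF the order turned: the mean r was 0.976 ± 0.0042 in gPS cells and 0.979 ± 0.0008 in ESC_like cells (SD, n = 5 and 3, exact permutation p = 0.393). The mean r with the GSC arrays was 0.901 in both groups (exact permutation p = 0.75).

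**Figure D1:**
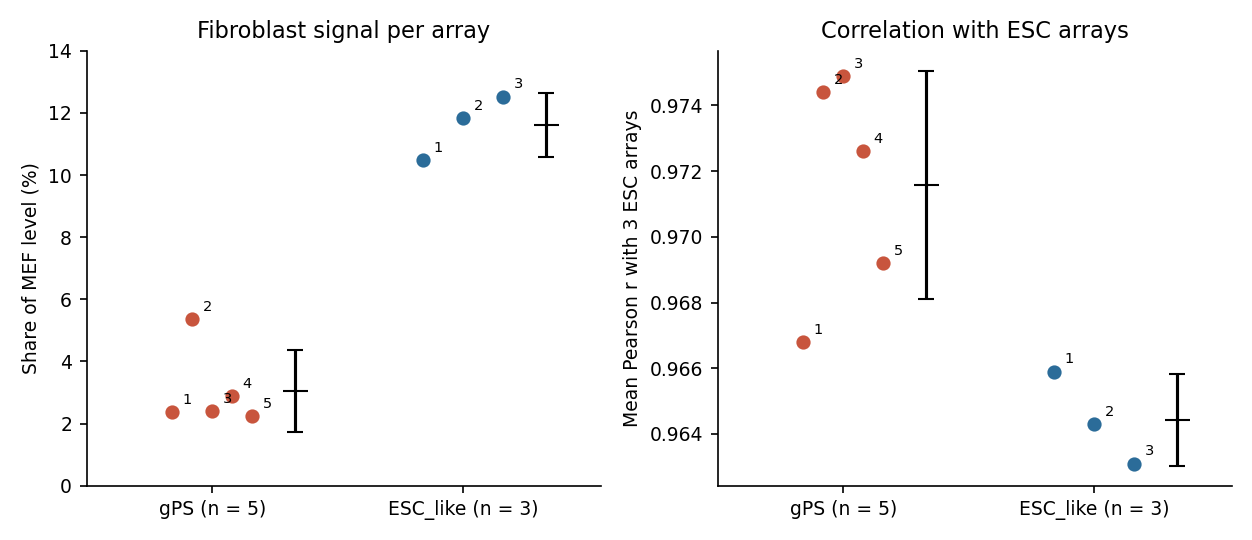
Left, the share of the MEF level in percent for each gPS and ESC_like array. Right, the mean Pearson r across 18193 genes with the 3 ESC arrays, on an axis that does not start at 0. Points are arrays with their replicate numbers and the black marks are means with SD. The gPS arrays sit at 2.25 to 5.36% and the ESC_like arrays at 10.47 to 12.52%.

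**Figure D2:**
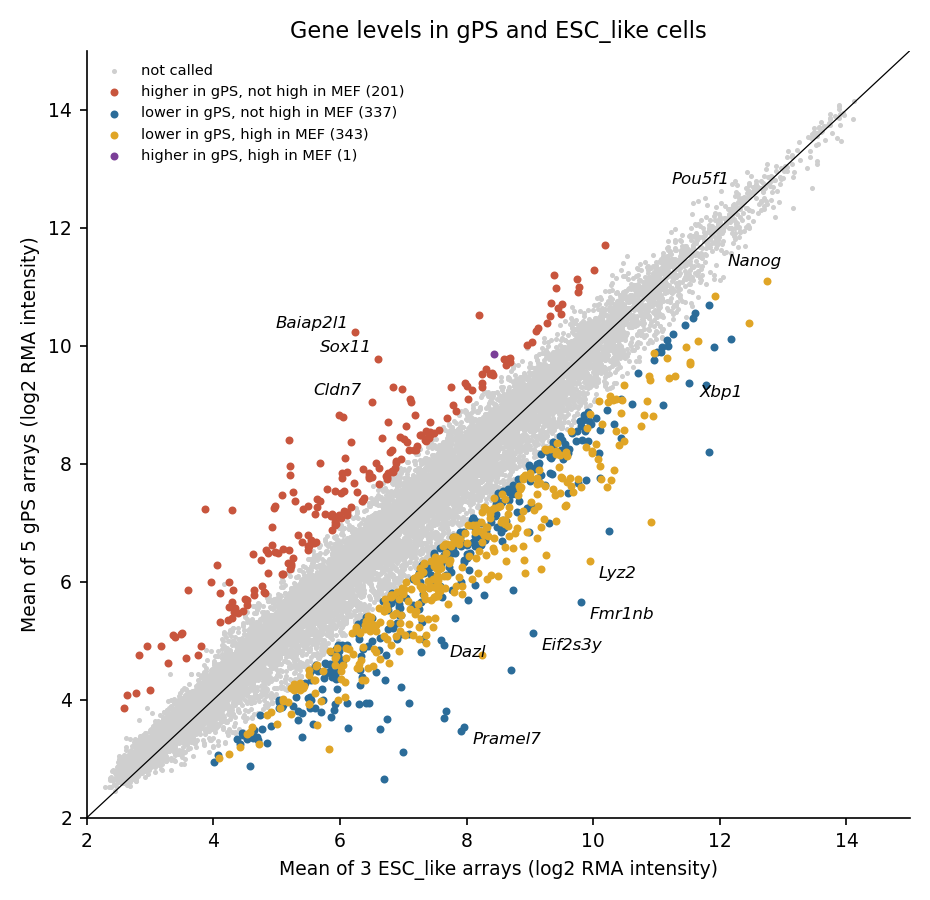
Group means of 18193 genes in log2 RMA intensity, gPS on the vertical and ESC_like on the horizontal axis, with equality as a line. Colours show called genes by direction and by the mark for genes high in MEF. The 343 marked genes below the line lie among the 337 unmarked ones.

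None of the core pluripotency factors passed the 2-fold threshold. Pou5f1 was at 12.77, 12.21, 12.40, 12.35 and 12.78 in gPS replicates 1 to 5, against 11.98, 11.45 and 11.85 in ESC_like replicates 1 to 3. All gPS arrays lay above all ESC_like arrays, with a difference of 0.74 ± 0.15 (SE, adjusted p = 0.000757, under 2-fold). Nanog averaged 11.66 ± 0.23 in gPS cells and 11.93 ± 0.14 in ESC_like cells (SD, n = 5 and 3), which differed by -0.27 ± 0.12 (SE, adjusted p = 0.109). For Sox2 the difference was -0.13 ± 0.13, for Esrrb 0.01 ± 0.14, for Klf4 -0.34 ± 0.23 and for Zfp42 -0.51 ± 0.12 (SE). These are transcription factors of the naive network, and of the 4 only Zfp42 had an adjusted p under 0.05 at the probe set used, at 0.003. The 3 probe sets of Esrrb ran from 0.01 to 0.87, and the 2 of Klf4 from -0.73 to -0.34. Dppa5a, an RNA-binding protein of the same cells, was among the highest signals at 14.07 ± 0.08 in gPS cells and 13.89 ± 0.03 in ESC_like cells (SD). Of 35 measured members of the pluripotency list 3 were lower, 0 were higher and 32 were not called, with a median of -0.12. Over all genes 3.74% were lower and 1.11% higher. Without gPS replicate 1 the list held 5 lower genes and 1 higher gene.

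The 3 lower members were Pramel7, Pramel6 and Prdm14. Pramel7 and Pramel6 are neighbouring members of a large family, and overexpressed Pramel7 is known to hold mouse embryonic stem cells in the naive state. Pramel7 was at 3.49, 3.42, 3.74, 3.28 and 3.72 in the gPS arrays, against 7.97, 8.08 and 7.84 in the ESC_like arrays. Pramel6 was at 3.62, 3.92, 3.79, 3.67 and 3.46 in the gPS arrays, against 7.64, 7.80 and 7.50 in the ESC_like arrays. The gPS values lay at the background of the array and no array of either group came near the other. The differences were -4.43 ± 0.14 for Pramel7 and -3.96 ± 0.12 for Pramel6 (SE, adjusted p = 5.08e-15 for both). Each gene has a second probe set, with differences of -0.47 and -0.98, and cross-hybridisation within the family is possible, so the share of each paralog is uncertain. ESC cells averaged 4.59 and 4.83, and GSC 3.44 and 3.37, for Pramel7 and Pramel6. Prdm14, which represses primed and germ layer genes in naive cells, averaged 7.71 ± 0.32 in gPS cells and 8.997 ± 0.12 in ESC_like cells (SD), a difference of -1.29 ± 0.18 (SE, adjusted p = 2.07e-05).

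Dppa3, a maternal factor that protects DNA methylation and marks the naive state and germ cells, split the gPS arrays. It was at 7.62, 11.11, 11.60, 11.70 and 11.66 in gPS replicates 1 to 5, against 9.32, 9.45 and 9.22 in ESC_like cells. Replicate 1 lay below every ESC_like array and the other 4 gPS arrays lay above all of them. Over all arrays the difference was 1.41 ± 0.59 (SE, adjusted p = 0.0799), and without gPS replicate 1 it was 2.19 (adjusted p = 4.97e-09). That was the only 1 of the 8 fits without 1 array that called Dppa3 (largest adjusted p = 0.179). It leaves out the array that lay opposite to the others.

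Pathways that hold or leave the naive state were counted beside the 4.85% of all genes that were called. Of 17 Nodal pathway genes 0 were called. Lefty1 and Lefty2, its secreted inhibitors, differed by 0.36 ± 0.19 and 0.64 ± 0.16 (SE), and the co-receptor Tdgf1 by 0.13 ± 0.17 (SE). In the LIF list 2 of 17 genes were lower. Stat3, which carries the LIF signal to the nucleus, averaged 8.52 ± 0.31 in gPS cells and 9.66 ± 0.17 in ESC_like cells (SD), and its 4 probe sets ran from -1.14 to 0.21. The receptor gene Osmr was lower, with a difference of -2.05 ± 0.35 (SE), but is high in MEF, and with the MEF share subtracted from every array, an alternative chosen after seeing the data, its difference was -0.61 and not called.

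BMP genes included 5 of 20 that were lower and 0 that were higher, with a median of -0.34 against 0.09 over all genes, of which 3.74% were lower. Grem1, Smad6 and the receptor gene Acvr1 are marked as high in MEF, where 33.8% of genes were lower, and of the 15 unmarked members 2 were lower, Bmp4 and Id4. The Acvr1 call was lost without gPS replicate 1 or 2 or ESC_like replicate 3, and the Id4 call without gPS replicate 1 or 2 or any single ESC_like replicate (largest adjusted p = 0.117). Bmp4, the ligand, was at 8.75, 7.18, 7.53, 7.72 and 7.63 in the gPS arrays, against 10.11, 10.17 and 10.02 in the ESC_like arrays and 10.03 on average in ESC. Every gPS array lay below every ESC_like array, and the difference was -2.34 ± 0.26 (SE, adjusted p = 1.34e-06). The secreted BMP antagonist Grem1 was lower too, at 7.72 ± 0.42 in gPS cells against 10.27 ± 0.18 in ESC_like cells (SD), with 5.15 in ESC and 9.06 in MEF. Smad6, an inhibitor inside the cell that BMP signals induce, averaged 5.29 ± 0.20 in gPS cells and 7.09 ± 0.03 in ESC_like cells (SD). Id3, a classical BMP target, differed by -0.15 ± 0.27 (SE, adjusted p = 0.712). With the MEF share subtracted 3 of the 20 genes were lower, Bmp4 at -2.38, Grem1 at -2.59 and Smad6 at -1.76.

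Among 14 genes of the primed epiblast 1 was higher and 4 were lower, beside 1.11% and 3.74% of all genes. Of its 11 members not high in MEF 1 was higher and 2 were lower. Sox11, a transcription factor of progenitor cells, was at 9.38, 9.88, 10.14, 9.96 and 9.55 in the gPS arrays, against 6.34, 6.92 and 6.53 in the ESC_like arrays. All gPS arrays were higher by at least 2 log2 units, the difference was 3.18 ± 0.20 (SE, adjusted p = 5.36e-10), and ESC, GSC and MEF averaged 5.61, 6.22 and 5.77. Its 6 probe sets ran from -0.56 to 3.18. Zic5, a zinc finger factor, averaged 6.92 ± 0.38 in gPS cells and 8.48 ± 0.08 in ESC_like cells (SD, difference -1.56 ± 0.17, SE). Cdh2, the cadherin of mesenchymal and neural cells, differed by -2.54 ± 0.16 (SE) and is high in MEF, at 10.35. Sox4 differed by -1.27 ± 0.21 and Pou3f1 by -1.003 ± 0.22 (SE). The probe sets of Sox4 ran from -1.51 to 0.18, and the other probe set of Pou3f1 gave -0.23. The Pou3f1 call was lost without gPS replicate 2 (-0.75) and without either ESC_like replicate 2 (-0.98) or 3 (-0.97). Otx2 and Dnmt3b, which mark the same state, were not called, at -0.76 ± 0.28 and 0.42 ± 0.19 (SE).

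Single members of the Wnt and FGF lists were called, beside 4.85% of all genes. Sfrp1, a secreted inhibitor of Wnt ligands, was at 9.34, 8.92, 8.26, 8.34 and 8.37 in the gPS arrays, against 7.01, 7.07 and 7.05 in the ESC_like arrays. It was higher in all gPS arrays (1.60 ± 0.20, SE, adjusted p = 4.54e-06), and its 5 probe sets ran from 0.15 to 1.69. The ligand gene Wnt5a was lower, with a difference of -1.47 ± 0.25 (SE), with 8.88 in MEF and a difference of -0.35 once the MEF share was subtracted. The other 42 of 44 Wnt genes were not called, and without gPS replicate 1 the list held 2 higher and 2 lower genes. Of 19 FGF genes only Fgfbp1, a carrier of FGF ligands, was called (difference -1.11 ± 0.38, SE), and its call was lost on leaving out gPS replicate 1 or 2 or any ESC_like array. Fgf4, the ligand that embryonic stem cells make for themselves, differed by 0.38 ± 0.19 (SE, adjusted p = 0.153).

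Of 18 genes of the epithelial and mesenchymal list 9 were higher in gPS cells, 4 were lower and 5 were not called, with a median of 0.70, where 1.11% of all genes were higher. All 9 higher genes were epithelial and none was high in MEF. The tight junction scaffold gene Tjp1 and the cadherin gene Cdh3 were not called, at 0.09 ± 0.11 and 0.40 ± 0.13 (SE). The 4 lower genes, Vim, Cdh11, Zeb1 and Zeb2, are mesenchymal. The list has 5 members marked as high in MEF, and 33.8% of all marked genes were lower. Of its 13 unmarked members 1 was lower, and the part of fibroblast RNA in these falls was not tested. With the MEF share subtracted 9 genes of the list were higher and 3 lower. Leaving out single arrays left 6 to 9 higher and 4 to 5 lower genes. Cldn7, a claudin of tight junctions, was at 7.96, 8.69, 9.46, 9.46 and 9.70 in the gPS arrays, against 6.65, 6.41 and 6.46 in the ESC_like arrays. No array overlapped, gPS replicate 1 was the lowest of its group, and the difference was 2.55 ± 0.28 (SE, adjusted p = 8.36e-07). Cldn6 and Cldn4 behaved alike, at 8.71 ± 0.86 and 9.05 ± 0.79 in gPS cells against 6.75 ± 0.05 and 7.12 ± 0.05 in ESC_like cells (SD). For Cldn4 the ESC mean of 9.01 lay at the gPS mean, while for Cldn7 the ESC mean of 6.57 lay at the ESC_like mean.

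Cdh1, which encodes E-cadherin, averaged 10.92 ± 0.26 in gPS cells and 9.76 ± 0.02 in ESC_like cells (SD), a difference of 1.16 ± 0.20 (SE). The adhesion protein gene Epcam was at 10.56, 10.67, 10.66, 10.53 and 10.81 in the gPS arrays, against 9.73, 9.32 and 9.27 in the ESC_like arrays, with no overlap. It is silent in MEF (4.19), and its difference of 1.21 ± 0.12 (SE) stands beside the higher fibroblast markers of the ESC_like arrays, whose part was not tested. Further genes that epithelia express stood among the largest rises. Prss8, a membrane serine protease, rose by 2.38 ± 0.29, and Ap1m2, the epithelial subunit of a clathrin adaptor, rose by 2.45 ± 0.23 (SE). Baiap2l1, which bends membranes at actin-rich protrusions, headed the rises. It was at 6.77, 10.34, 11.33, 11.73 and 10.96 in gPS replicates 1 to 5, against 6.30, 6.32 and 6.10 in the ESC_like arrays. Replicate 1 lay less than 1 log2 unit above the ESC_like arrays and the other 4 were above 10, near the GSC mean of 11.17, for a difference of 3.98 ± 0.66 (SE, adjusted p = 0.000127).

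Germ line genes differed in both directions. Of 25 germ cell and piRNA genes 4 were higher and 6 lower, with a median of -0.07. Of 29 meiotic and postmeiotic genes 1 was higher and 3 lower. Over all genes 1.11% were higher and 3.74% lower. Dazl, an RNA-binding protein that germ cells need for their development, was at 4.90, 4.77, 5.24, 4.96 and 5.20 in the gPS arrays, against 7.34, 7.83 and 7.64 in the ESC_like arrays. The gPS values lay at the ESC mean of 5.12, the ESC_like values lay between it and the GSC mean of 12.21, and the difference was -2.59 ± 0.13 (SE, adjusted p = 3.38e-11). Hormad1, a protein of meiotic chromosome axes, was at 3.35, 4.79, 4.37, 4.94 and 4.27 in the gPS arrays, against 6.53, 6.92 and 6.69 in the ESC_like arrays, again without overlap (-2.37 ± 0.24, SE). Sohlh2, a transcription factor of differentiating spermatogonia, and Slc25a31, the ADP/ATP carrier of germ cells, differed by -1.84 ± 0.14 and -1.69 ± 0.15 (SE). The meiotic cohesin gene Smc1b was lower, with a difference of -1.25 ± 0.26 and Syce1, of the synaptonemal complex, by -1.62 ± 0.36 (SE). For Syce1 gPS replicate 1, at 7.05, overlapped the ESC_like arrays, and the other 4 gPS arrays were at 4.38 to 5.06.

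Other germ line genes ran the opposite way. Ddx4, the RNA helicase of germ cells, was at 8.16, 7.37, 6.82, 6.88 and 6.94 in the gPS arrays, against 5.27, 5.63 and 5.36 in the ESC_like arrays. All gPS arrays were higher (1.81 ± 0.23, SE, adjusted p = 4.65e-06), and far under the GSC mean of 11.81. Sycp3, a component of meiotic chromosome axes, was at 6.48, 7.44, 6.97, 7.40 and 6.37 in the gPS arrays, against 4.87, 5.25 and 4.64 in the ESC_like arrays. It was higher in each gPS array (2.01 ± 0.20, SE), while ESC averaged 9.33 and GSC 11.35. Tdrd12, a Tudor protein of the piRNA pathway, averaged 9.09 ± 0.85 in gPS cells and 7.11 ± 0.19 in ESC_like cells (SD), with 8.07 in ESC and 8.80 in GSC. Kit, the receptor of differentiating germ cells, was not called (-0.67 ± 0.27, SE, adjusted p = 0.0657).

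The called germ line genes were also set against their promoters. RefSeq windows of 250 bases before the start were at hand for 12 of the 14 genes called in the germ cell and meiotic lists (build GRCm38.p6). The 9 lower genes with a window held 9 to 25 CG pairs and the 3 higher genes 6 to 31, against a median of 6 over 32851 windows. The motif CACGTG, which reads the same on both strands, was in 3 of the 9 lower and 2 of the 3 higher genes, and in 6.02% of all windows. Below are the last 120 bases before the start of a lower and a higher gene of each list and of Pramel7, 5′ to 3′ on the gene's strand, with each CG in capitals, to show how unlike these promoters are.
Dazl (lower, chr17:50293621-50293740, minus strand): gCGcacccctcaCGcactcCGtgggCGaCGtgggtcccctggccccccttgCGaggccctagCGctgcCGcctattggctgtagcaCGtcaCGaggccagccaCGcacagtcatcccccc
Hormad1 (lower, chr3:95559557-95559676, plus strand): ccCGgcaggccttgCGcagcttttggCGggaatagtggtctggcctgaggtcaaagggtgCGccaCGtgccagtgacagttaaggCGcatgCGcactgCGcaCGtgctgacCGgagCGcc
Ddx4 (higher, chr13:112652311-112652430, minus strand): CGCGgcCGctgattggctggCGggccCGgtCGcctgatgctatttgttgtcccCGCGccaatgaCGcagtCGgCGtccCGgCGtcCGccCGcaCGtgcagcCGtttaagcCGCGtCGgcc
Sycp3 (higher, chr10:88459467-88459586, plus strand): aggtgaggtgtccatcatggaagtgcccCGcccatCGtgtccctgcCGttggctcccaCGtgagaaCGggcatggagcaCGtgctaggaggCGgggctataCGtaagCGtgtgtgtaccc
Pramel7 (lower, chr2:87492419-87492538, minus strand): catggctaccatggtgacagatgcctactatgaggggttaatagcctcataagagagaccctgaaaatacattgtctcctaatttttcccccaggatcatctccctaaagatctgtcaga
The stretch shown holds 11 CG pairs in Dazl, 11 in Hormad1, 20 in Ddx4, 9 in Sycp3 and 0 in Pramel7. Each of the 9 lower germ line genes held more CG pairs than the median window, and the promoter poor in CG was that of Pramel7, from the pluripotency list. The counts of lower and higher germ line genes overlapped. The called germ line genes without a window were all higher ones.

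Markers of undifferentiated spermatogonia gave 3 higher and 3 lower of 19, beside 1.11% higher and 3.74% lower over all genes. The list gave 1 lower gene without gPS replicate 2 or ESC_like replicate 2 or 3. The higher genes, Lin28a, Epcam and Cdh1, are shared with pluripotent cells. Lin28a, which blocks the maturation of let-7 microRNAs, was at 10.68, 10.87, 11.10, 10.94 and 11.26 in the gPS arrays, against 9.59, 9.12 and 9.53 in the ESC_like arrays, and rose by 1.56 ± 0.17 (SE), although its other probe set gave -0.21. Igf2bp3, an RNA-binding protein of fetal tissue, was at 9.50, 9.68, 9.54, 9.38 and 9.48 in the gPS arrays, against 8.37, 8.42 and 8.32 in the ESC_like arrays. These narrow ranges did not overlap (1.15 ± 0.09, SE), and the 6 probe sets of Igf2bp3 all gave positive differences, from 0.85 to 1.88. The integrin gene Itgb1 was lower, with a difference of -1.38 ± 0.12 (SE) and averaged 11.67 in MEF.

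Y chromosome genes were lower in gPS cells where called. Of 9 measured genes in the list of Y-linked genes and Xist, 4 were lower and 0 higher. Over all genes 3.74% were lower. Eif2s3y, a translation factor gene of the Y chromosome, was at 4.51, 7.39, 4.21, 3.67 and 5.85 in gPS replicates 1 to 5, against 9.03, 9.28 and 8.85 in ESC_like replicates 1 to 3. Replicates 2 and 5 were the highest gPS arrays and still below every ESC_like array, and the difference was -3.93 ± 0.50 (SE, adjusted p = 6.44e-06). ESC averaged 10.08, GSC 8.97 and MEF 8.95, and the second probe set of Eif2s3y gave 0.08. The demethylase gene Uty was at 4.43, 6.004, 5.34, 4.66 and 5.12 in the gPS arrays, against 7.05, 7.02 and 6.81 in the ESC_like arrays, with replicate 2 on top. Uba1y, which GSC express at 12.11, averaged 4.38 ± 0.37 in gPS cells and 6.35 ± 0.03 in ESC_like cells (SD). The gPS mean of Eif2s3y lies below the GSC mean of the same mouse strain, and whether cells had lost the chromosome was not tested. Xist, the RNA that silences one X chromosome in female cells, was lower, with a difference of -1.56 ± 0.22 (SE), at 6.27, 7.41, 6.14, 6.21 and 6.41 in the gPS arrays against 7.996, 8.37 and 7.78 in the ESC_like arrays, and by -1.85 and -0.10 at its other probe sets.

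X-linked genes were among the largest falls. Pnma5 was at 4.67, 4.38, 4.63, 4.33 and 4.54 in the gPS arrays, against 8.76, 8.56 and 8.79 in the ESC_like arrays and 9.72 on average in GSC. Fmr1nb, an X-linked gene with testis expression, was at 4.93, 5.63, 5.86, 5.98 and 5.88 in the gPS arrays, against 9.92, 9.75 and 9.77 in the ESC_like arrays, 8.86 in ESC and 9.22 in GSC. No gPS array came within 3 log2 units of an ESC_like array for either gene, and the differences were -4.20 ± 0.12 and -4.16 ± 0.18 (SE). Efhc2 differed by -3.15 ± 0.14 (SE). Of 8 measured Rhox, Mage and Xlr genes 2 were lower, Rhox5 and Magea5, beside 3.74% of all genes. Magea5 lay near background and lost its 2-fold difference without ESC_like replicate 1 (-0.99). Rhox5, a homeobox gene of this X-linked cluster, was at 7.37, 8.39, 10.38, 10.37 and 10.13 in gPS replicates 1 to 5, against 11.71, 11.88 and 11.74 in the ESC_like arrays. Replicates 1 and 2 were lowest, and without both of them the difference of -2.45 ± 0.48 (SE) came to -1.49. Rhox6 and Rhox9 of the same cluster were lower in gPS replicate 1, at 4.48 and 5.45, than in any other gPS array, and were not called (0.59 ± 0.70 and 0.86 ± 0.45, SE). Without that replicate they were higher by 1.41 (adjusted p = 0.00777) and by 1.37 (adjusted p = 4.6e-04).

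**Figure D3:**
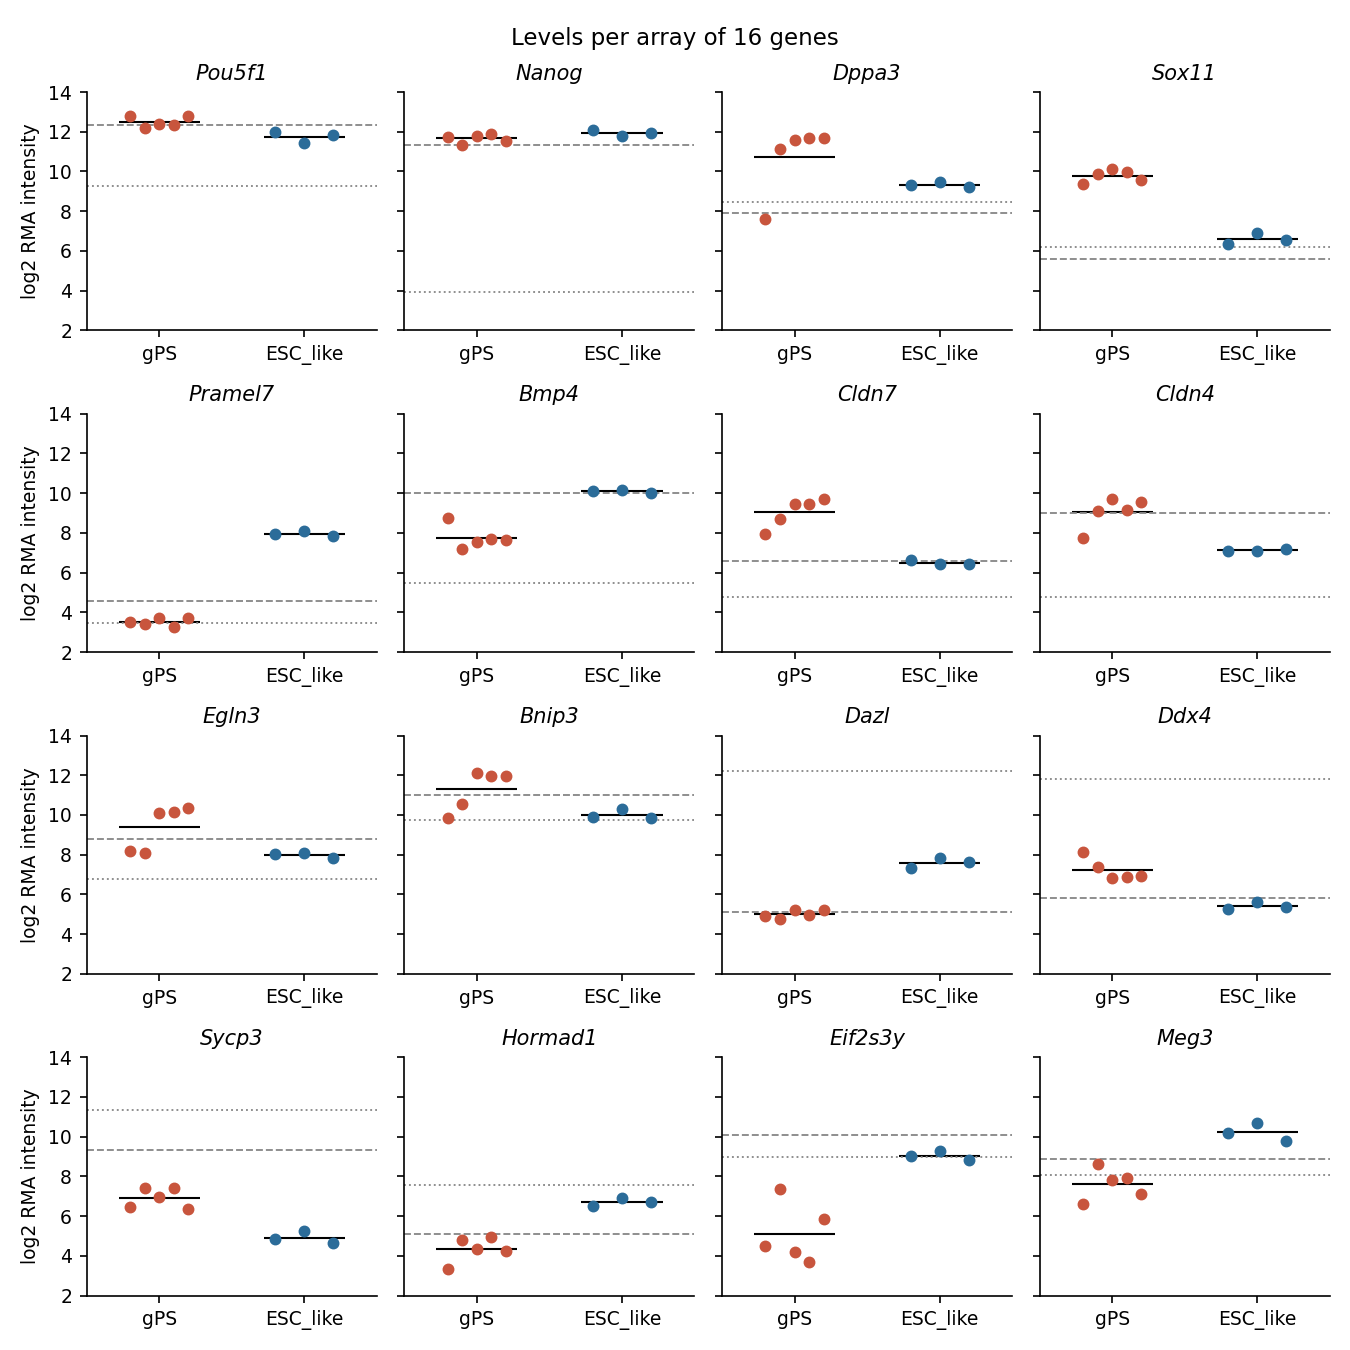
Log2 RMA intensity of 16 genes in each array, gPS replicates 1 to 5 and then ESC_like replicates 1 to 3, with the group mean as a black line. The dashed line is the ESC mean and the dotted line the GSC mean. Pramel7 and Dazl separate without overlap, and Dppa3, Egln3, Bnip3 and Eif2s3y vary between gPS arrays.

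Noncoding RNAs of the imprinted Dlk1 to Meg3 region were lower in gPS cells. Of 23 measured maternally expressed genes 4 were lower (Meg3, Rian, Grb10 and Mirg). Of 23 paternally expressed genes 2 were lower (Igf2 and Ndn), with 0 higher in either list. Over all genes 3.74% were lower, and among genes marked as high in MEF 33.8%. Meg3, Grb10, Igf2 and Ndn carry that mark. Of the unmarked members 2 of 20 maternally and 0 of 19 paternally expressed genes were lower. Meg3, a noncoding RNA whose silencing is known to mark pluripotent lines of reduced developmental potential, was at 6.60, 8.63, 7.82, 7.90 and 7.11 in gPS replicates 1 to 5, against 10.20, 10.69 and 9.77 in ESC_like replicates 1 to 3. All gPS arrays were lower, replicate 1 most of all, and the difference was -2.61 ± 0.30 (SE, adjusted p = 1.94e-06). Its 11 probe sets ran from -3.22 to 0.13, and ESC and GSC averaged 8.88 and 8.09. Rian, a neighbouring noncoding RNA, was at 4.87, 5.39, 5.06, 4.97 and 4.87 in the gPS arrays, against 6.72, 7.45 and 6.54 in the ESC_like arrays and 7.82 in ESC. It differed by -1.87 ± 0.19 (SE), and by -0.57 with the MEF share subtracted, which is not a call, whereas Meg3 came to -2.82. MEF express both, at 9.79 and 10.94. Mirg, of the same cluster, differed by -1.16 ± 0.24 (SE), with gPS replicate 1 at 5.53 inside the ESC_like range, and lost its 2-fold difference without ESC_like replicate 3 (-0.998).

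Igf2, the fetal growth factor, averaged 8.29 ± 0.45 in gPS cells and 9.89 ± 0.16 in ESC_like cells (SD), a difference of -1.60 ± 0.24 (SE). Grb10, an inhibitor of growth factor receptors, was at 7.20, 9.23, 7.34, 7.53 and 7.47 in the gPS arrays, against 9.57, 9.58 and 9.73 in the ESC_like arrays, and gPS replicate 2 stood near the ESC_like level. Both are high in MEF, at 12.28 and 12.08, and their differences with the MEF share subtracted were -1.49 and -1.75. Plagl1 and Peg3, which are paternally expressed, differed by -0.80 ± 0.12 and -0.32 ± 0.13 (SE) and were not called.

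Chromosome medians did not run in parallel in the groups. On chromosome 11 the median level of 649 genes relative to ESC was 0.09, -0.03, 0.01, 0.01 and 0.05 in gPS replicates 1 to 5, against 0.26, 0.26 and 0.31 in ESC_like replicates 1 to 3. Of those genes 52 (8.01%) were lower in gPS cells and 4 (0.616%) were higher, beside 5.87% lower and 1.75% higher over all 7595 genes above a level of 7. Larger shares were lower on chromosomes 1 (38 of 425), 3 (31 of 371), 6 (32 of 372) and X (24 of 251). On the X chromosome the median of 251 genes was -0.25, -0.07, -0.10, -0.06 and -0.20 in the gPS arrays, against 0.08, 0.17 and 0.11 in the ESC_like arrays. Chromosome 8 was low in both groups, at -0.28, 0.00, -0.30, -0.27 and -0.22 in the gPS arrays and at -0.35, -0.37 and -0.36 in the ESC_like arrays. Chromosome 6 stood at -0.02, -0.02, 0.31, 0.29 and 0.17 in the gPS arrays and at 0.22, 0.23 and 0.23 in the ESC_like arrays. On chromosomes 3 and 10 gPS replicate 1 had the lowest medians of the 8 arrays, -0.25 and -0.26. These are descriptions of expression, and copy number was not measured.

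**Figure D4:**
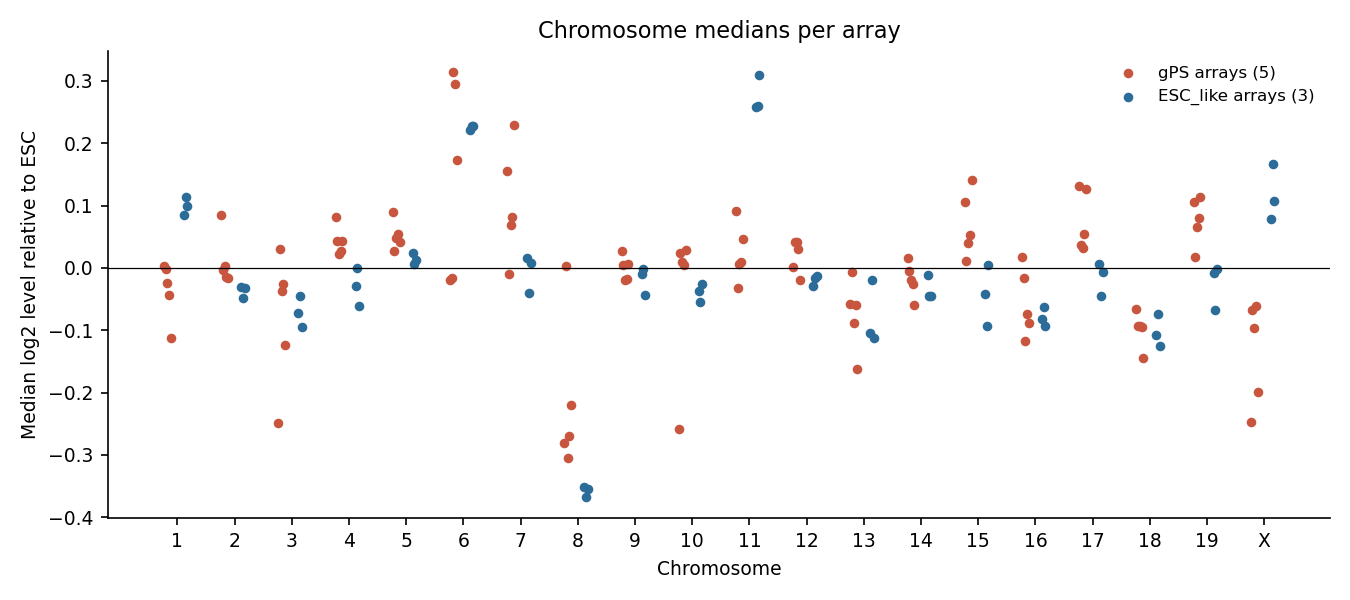
Median log2 level relative to the ESC mean of the genes of each chromosome that exceed 7 in either group, centred per array on the median over all such genes. Each point is an array, gPS left of ESC_like on every chromosome. The ESC_like arrays stand furthest from the gPS arrays on chromosomes 11 and X. The groups do not overlap either, with smaller gaps, on chromosomes 1, 2, 4, 5, 8, 15, 17 and 19. The gPS arrays differ among themselves on chromosomes 6 and 8.

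Of 18 immediate early genes 7 were lower in gPS cells, 0 were higher and 11 were not called, with a median of -0.82, beside 3.74% of all genes that were lower. The count was 7 with the MEF share subtracted, and 5 to 8 with single arrays left out. Egr2, a zinc finger factor that growth signals induce, was at 4.16, 4.92, 5.52, 5.38 and 4.80 in the gPS arrays, against 7.33, 7.52 and 7.25 in the ESC_like arrays. It differed by -2.41 ± 0.22 (SE) without overlap. Btg2, an inhibitor of proliferation, differed by -2.16 ± 0.13, the AP-1 subunit gene Junb by -1.71 ± 0.22 and the stress factor gene Atf3 by -1.60 ± 0.17 (SE). Jun was at 6.01, 7.13, 8.29, 7.87 and 8.52 in gPS replicates 1 to 5, against 9.41, 9.10 and 9.59 in the ESC_like arrays, and without gPS replicates 1 and 2 its difference of -1.80 ± 0.36 (SE) came to -1.14. Fos, its partner, was not called (-0.83 ± 0.19, SE). Such genes respond within minutes to handling of cultures, and the time of harvest is not in the labels.

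Of 17 p53 pathway and inhibitor genes 5 were lower, 0 were higher and 12 were not called, with a median of -0.76. Over all genes 3.74% were lower, and of the 14 members not high in MEF 3 were lower. Cdkn2a, whose transcripts encode p16Ink4a and p19Arf, was at 4.97, 5.36, 5.38, 5.49 and 5.76 in the gPS arrays, against 8.33, 7.69 and 7.44 in the ESC_like arrays. All gPS arrays were lower (-2.43 ± 0.19, SE, adjusted p = 8.68e-09), at the ESC mean of 5.38. The neighbouring inhibitor Cdkn2b averaged 6.78 ± 0.21 in gPS cells and 8.34 ± 0.17 in ESC_like cells (SD). Cdkn1a, the p21 target of p53, differed by -1.15 ± 0.14 (SE) and averaged 11.77 in MEF, and the p53 target Eda2r differed by -1.59 ± 0.13 (SE). With the MEF share subtracted 3 of the 17 were lower. Among 28 cell cycle genes only Ccnd2, a G1 cyclin that GSC and MEF express at 11.02 and 12.20, was lower (-1.80 ± 0.17, SE). Bmi1, a Polycomb protein that represses Cdkn2a in other cells, was lower as well, at 6.04 ± 0.57 in gPS cells and 7.50 ± 0.14 in ESC_like cells (SD). It was the only call among 28 Polycomb genes, and 2 were lower without gPS replicate 1, 3 or 4 or ESC_like replicate 1 or 3.

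The list of heat shock and unfolded protein response genes gave 6 lower genes of 16 and 0 higher, with a median of -0.51. Over all genes 3.74% were lower. Xbp1, its transcription factor, was at 9.39, 10.10, 9.28, 8.89 and 9.20 in the gPS arrays, against 11.55, 11.49 and 11.51 in the ESC_like arrays and 11.03 in ESC. The groups did not overlap (-2.14 ± 0.17, SE, adjusted p = 1.09e-08), and its 4 probe sets ran from -2.14 to -0.95. Dnajb9, a chaperone partner in the endoplasmic reticulum, differed by -1.29 ± 0.14, and the disulfide isomerase gene Pdia4 by -1.52 ± 0.21 (SE), with 0.22 at the other Pdia4 probe set. The main chaperone of that compartment, Hspa5, was not called (-0.80 ± 0.17, SE, adjusted p = 0.0013), though without gPS replicates 1 and 2 it was lower, with a difference of -1.11. Hspa1a and Hspa1b, near-identical genes for inducible Hsp70 whose signals may be mixed, differed by -1.20 ± 0.14 and -1.12 ± 0.14 (SE).

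Of 23 measured genes of hypoxia and glycolysis 4 were higher in gPS cells, 1 was lower and 18 were not called, beside 1.11% of all genes that were higher. The list had a median of 0.47, and 0 of the 23 were high in MEF. Egln3, an oxygen sensor that hypoxia induces, was at 8.17, 8.08, 10.12, 10.15 and 10.34 in gPS replicates 1 to 5, against 8.01, 8.08 and 7.84 in ESC_like replicates 1 to 3. Replicates 3 to 5 were about 2 log2 units above replicates 1 and 2, which lay at the ESC_like level, and the difference over all 5 was 1.40 ± 0.40 (SE, adjusted p = 0.0118). Bnip3, a mitophagy receptor, was at 9.84, 10.56, 12.09, 11.98 and 11.96 in the gPS arrays, against 9.89, 10.31 and 9.84 in the ESC_like arrays. Replicates 1 and 2 were again the lowest of their group, and replicate 1 lay at the ESC_like level (1.27 ± 0.36, SE, adjusted p = 0.0106). Ankrd37 and the lactate exporter gene Slc16a3 differed by 1.39 ± 0.33 and 1.32 ± 0.33 (SE), and Slc16a3 lost its 2-fold difference without gPS replicate 5 (0.98). Without gPS replicates 1 and 2, Egln3 differed by 2.23 and Bnip3 by 2.00, and 6 genes of the list were higher. Pgk1, a glycolytic enzyme, differed by 0.15 ± 0.09 (SE), and the lower gene was the phosphofructokinase Pfkp (-1.19 ± 0.12, SE).

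The glutathione list held 3 higher and 4 lower genes of 36, beside 1.11% of all genes that were higher and 3.74% that were lower. Of its 31 members not high in MEF 3 were higher and 1 was lower. The transferase gene Gstt2 was at 7.54, 9.50, 9.002, 9.23 and 8.88 in the gPS arrays, against 7.30, 7.19 and 7.08 in the ESC_like arrays. It rose by 1.64 ± 0.27 (SE) with replicate 1 near the ESC_like arrays, and Gstm3 rose by 1.54 ± 0.32 (SE). Gsta3 was lower, with a difference of -1.97 ± 0.26 (SE). Mgst1 was lower, with a difference of -2.15 ± 0.20 (SE), but its other probe set gave 0.11. Gpx8, an endoplasmic reticulum peroxidase high in MEF, was lower, with a difference of -1.29 ± 0.20 (SE) and gave 0.99 with the MEF share subtracted.

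The same gPS replicates differed from each other in further genes. Slc40a1, the iron exporter ferroportin, was at 5.09, 8.17, 9.67, 9.67 and 9.60 in gPS replicates 1 to 5, against 6.65, 6.67 and 6.69 in the ESC_like arrays. Replicate 1 lay below every ESC_like array and the other 4 above all of them, and the call (1.77 ± 0.66, SE, adjusted p = 0.0493) was lost on leaving out any ESC_like array or any of gPS replicates 2 to 5 (largest adjusted p = 0.118). Sfmbt2, an imprinted Polycomb gene, was at 5.79, 8.91, 10.49, 10.20 and 10.34 in the gPS arrays, against 9.35, 9.47 and 9.40 in the ESC_like arrays, and was not called. Among genes with a group mean above 7 these genes, with Dppa3, Rhox6, Baiap2l1 and Lyz1, had the largest SDs within gPS cells. Among the same genes the largest SDs within ESC_like cells were those of Col1a1, Ngfr, Kdm2a and Alkbh5, at 0.67, 0.57, 0.52 and 0.50.

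Most fibroblast markers were lower in gPS cells. Of 35 measured fibroblast genes 27 were lower and 0 higher, with a median of -1.58, and 34 of the 35 are among the genes high in MEF, of which 33.8% were lower. The mean log2 level of the list was 7.34 to 8.17 in gPS arrays and 8.90 to 9.14 in ESC_like arrays. Fbln2, a matrix protein, was at 7.31, 7.43, 7.04, 7.28 and 7.37 in the gPS arrays, against 9.55, 9.32 and 9.81 in the ESC_like arrays and 11.12 in MEF. The tissue inhibitor gene Timp3 differed by -2.38 ± 0.14, the collagen gene Col5a2 by -2.42 ± 0.24 and the collagen cross-linker gene Lox by -2.39 ± 0.19 (SE). With the MEF share subtracted 17 of the 35 were lower and 4 higher, with a median of -0.98, and the members did not keep a common direction. Col5a2 and Timp3 came to -3.59 and -2.71, while Lox and Col1a1 turned to 0.26 and 0.35. Col1a1 also lost its call without ESC_like replicate 3 (-0.83). Plac8, the 1 marked gene that was higher, was at 8.76, 10.15, 10.20, 10.23 and 9.97 in the gPS arrays, against 8.43, 8.58 and 8.29 in the ESC_like arrays. The subtraction assumes that fibroblasts in these cultures express each gene as the MEF arrays do. The share is a median over 46 fibroblast genes that include Col1a1 of this list. Differences of both signs after the subtraction are therefore partly built in.

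Of 15 macrophage genes 7 were lower, beside 3.74% of all genes that were lower. In this list 0 genes were higher and 8 were not called, with a median of -0.96. The mean log2 level of the list was 4.65 to 5.66 in gPS arrays and 5.94 to 6.06 in ESC_like arrays. Among gPS arrays replicate 2 had the highest level. Lyz2, the lysozyme of macrophages, was at 5.59, 8.78, 5.20, 5.59 and 6.60 in gPS replicates 1 to 5, against 9.80, 9.98 and 10.06 in the ESC_like arrays, 10.96 in GSC and 8.33 in MEF. All gPS arrays were lower (-3.60 ± 0.51, SE), replicate 2 least so. Lyz1 differed by -3.90 ± 0.62 (SE) at a probe set that may also read Lyz2, and by 0.07 at another. The complement genes C1qb and C1qa differed by -1.77 ± 0.27 and -1.33 ± 0.24, the cathepsin gene Ctss by -2.15 ± 0.38 and the adaptor gene Tyrobp by -1.40 ± 0.28 (SE). Csf1r and Adgre1, defining surface proteins of macrophages, were not called (-0.62 ± 0.16 and -0.21 ± 0.15, SE). The part of macrophages in other results was not tested.

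Genes of antigen presentation and of the interferon response were lower where called. Of 14 MHC class I genes 4 were lower, and of 22 interferon-stimulated genes 4 were lower, with 0 higher in both. Over all genes 3.74% were lower, and of the 16 interferon-stimulated genes not high in MEF 1 was lower. The fourth class I call was the proteasome subunit gene Psmb8. Gbp2, a guanylate-binding protein that interferon gamma induces, was at 4.14, 4.17, 5.42, 5.24 and 4.83 in the gPS arrays, against 8.21, 8.25 and 8.26 in the ESC_like arrays. The difference of -3.48 ± 0.28 (SE) left no overlap, and the level in MEF was 6.64, below that in ESC_like cells. Ifi35 and Oas1a differed by -2.10 ± 0.13 and -1.37 ± 0.12 (SE). B2m, the invariant chain of class I molecules, averaged 9.49 ± 0.50 in gPS cells and 10.89 ± 0.16 in ESC_like cells (SD), with 10.17 in ESC. The heavy chain genes H2-K1 and H2-D1 differed by -1.52 ± 0.26 and -1.30 ± 0.18 (SE). Their probes are specific to alleles and to members of the family: the 9 probe sets of H2-D1 ran from -1.30 to 1.25, and the part of haplotype in these 2 differences was not tested. Txnip, an inhibitor of thioredoxin that glucose induces, was at 6.52, 5.33, 6.68, 6.50 and 6.06 in the gPS arrays, against 9.16, 9.15 and 9.20 in the ESC_like arrays, 5.23 in ESC and 12.04 in GSC. It is marked as high in MEF, and with the MEF share subtracted it came to -3.07.

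Of the pigment cell list 3 of 9 genes were lower, beside 3.74% of all genes. Mitf, the master transcription factor of melanocytes, was at 5.84, 5.50, 6.25, 5.84 and 5.88 in the gPS arrays, against 8.66, 8.94 and 8.58 in the ESC_like arrays and 7.69 in ESC. Its second probe set gave -1.65 beside -2.87 ± 0.20 (SE). Pmel, a melanosome matrix protein that ESC express at 11.29, averaged 6.11 ± 0.46 in gPS cells and 7.67 ± 0.10 in ESC_like cells (SD). Both groups were far below the RW4 line, and gPS cells lower still.

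Markers of other lineages were counted beside the same 4.85% of all genes. Of 19 mesoderm genes 0 were called. Among 23 neural genes 1 was higher and 1 lower, and among 24 genes of extraembryonic endoderm 1 was higher and 2 lower. Leaving out single arrays left 0 to 2 higher neural genes, and 0 to 1 higher and 1 to 3 lower endoderm genes. Among 16 trophoblast genes 2 were lower, Krt19 by -1.65 ± 0.18 (SE), and 1 without gPS replicate 1 or 2 or ESC_like replicate 3. Only 3 of 33 Hox genes exceeded a level of 6. The 2 lower Hox genes were not among them: Hoxc8 and Hoxd13 averaged 3.88 and 5.21 over the gPS and ESC_like arrays. Without ESC_like replicate 2 or gPS replicate 3, 4 or 5 only 1 was lower. Of 14 somatic testis genes 2 were lower, Kitl and Inhbb, and Kitl, the ligand of Kit, is high in MEF (10.29) and lost its call with the MEF share subtracted (-0.67). The Inhbb call was lost without ESC_like replicate 3 (adjusted p = 0.0864). All lower genes of the neural, endoderm, Hox and somatic testis lists were marked as high in MEF, where 33.8% of genes were lower. Among 7 measured genes of the 2-cell-like state only Usp17la was lower (4.76 ± 0.33 in gPS cells against 6.73 ± 0.31 in ESC_like cells, SD).

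Of 77 respiratory chain and ATP synthase genes and 18 genes of the amino acid stress response 0 were called, beside 4.85% of all genes. Over all genes 3.74% were lower, and the single lower members of the following lists lie near that share. Of 39 proteasome genes 1 was lower, the immunoproteasome subunit Psmb8 (-1.18 ± 0.14, SE), and of 49 ribosomal genes 1 was lower, Rpl39l. Rpl39l, a paralog of Rpl39 that is enriched in testis, was at 8.40, 8.13, 8.84, 8.94 and 9.07 in the gPS arrays, against 10.32, 10.42 and 10.25 in the ESC_like arrays, 10.85 in ESC and 12.60 in GSC. All gPS arrays were lower (-1.65 ± 0.17, SE). Of 19 genes of DNA methylation only Mbd4, a thymine glycosylase, was lower (-1.41 ± 0.15, SE), while its other probe sets gave -0.35 and -0.002. Dnmt3l, the cofactor of de novo methylation, differed by 0.35 ± 0.15 (SE).

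**Figure D5:**
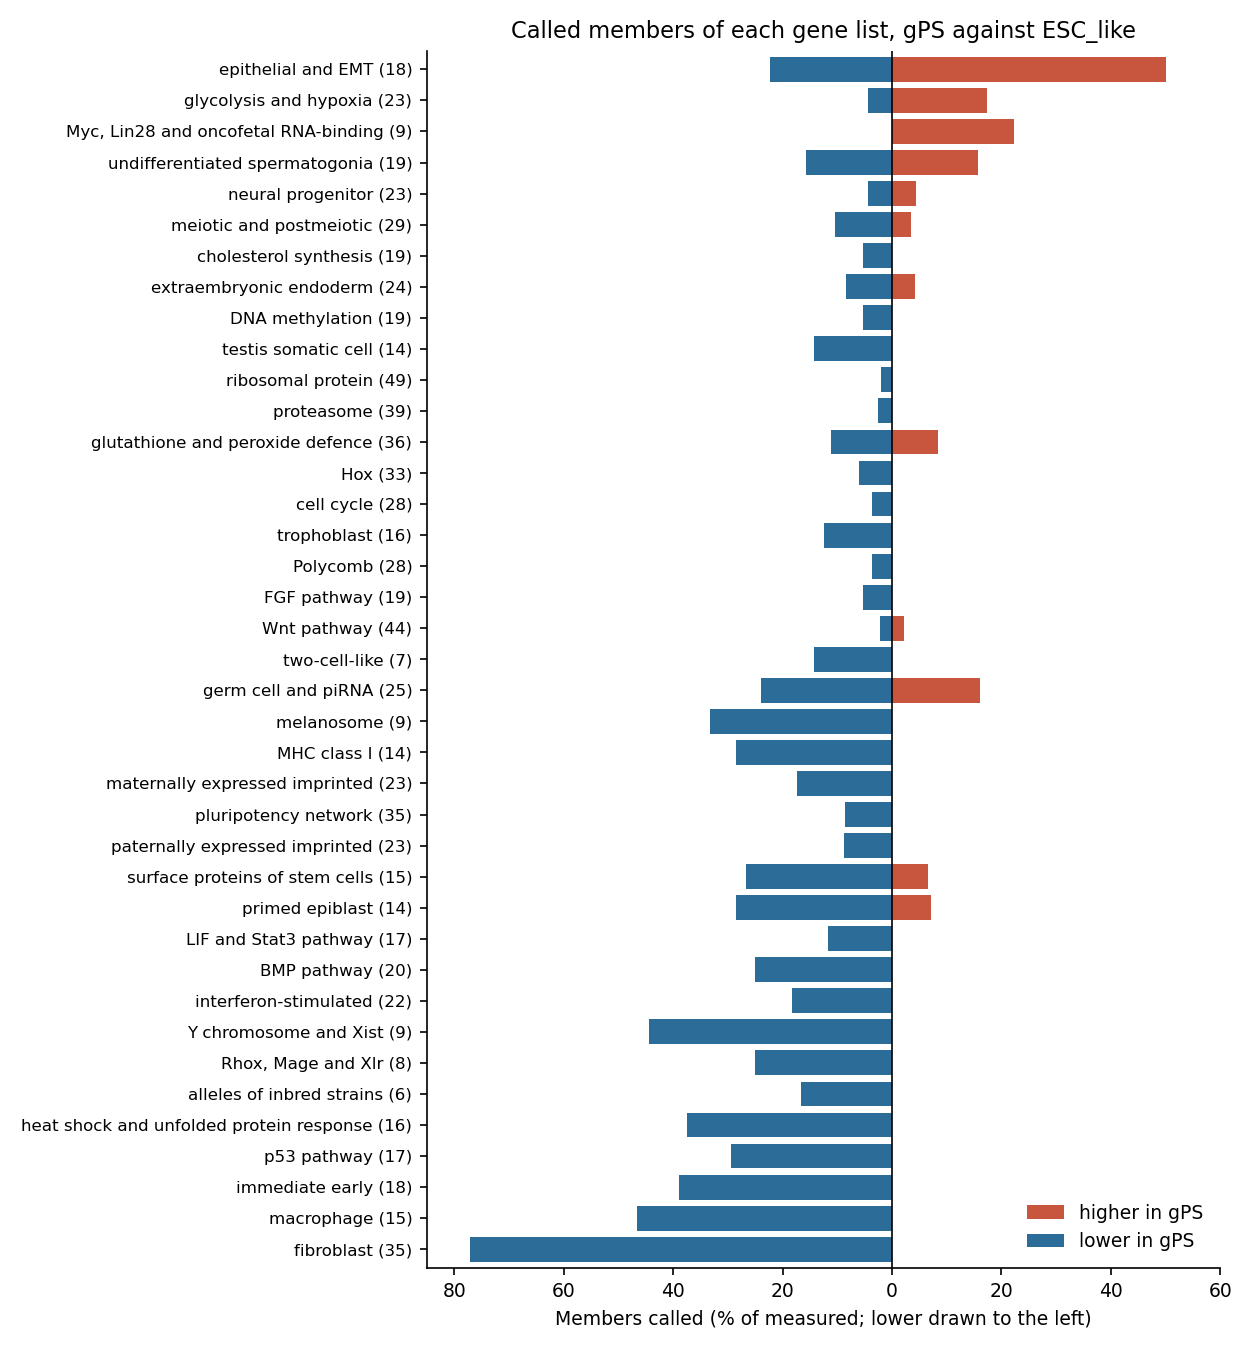
Called members of each gene list as a percent of its measured members (in brackets), higher in gPS cells to the right and lower to the left, ordered by median difference. Lists with 0 calls are not drawn. The epithelial list stands at the top with 9 of 18 genes higher, and the fibroblast list at the bottom with 27 of 35 lower.

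The remaining large differences lay outside these lists. Of genes not high in MEF, Gm21283 had the largest fall, at 3.53, 3.61, 3.55, 3.44 and 3.21 in the gPS arrays against 8.03, 7.89 and 7.84 in the ESC_like arrays, with 3.37, 3.39 and 3.23 in ESC, GSC and MEF. Among these groups only ESC_like cells exceeded the background, and the same held for AI662270 (3.11 ± 0.19 in gPS cells and 7.001 ± 0.34 in ESC_like cells, SD, with 3.28 in ESC). Aass, an enzyme of lysine breakdown, and Rbm45, an RNA-binding protein, were at 3.81 ± 0.25 and 6.86 ± 0.47 in gPS cells, against 7.68 ± 0.10 and 10.26 ± 0.21 in ESC_like cells (SD) and 8.96 and 10.35 in ESC. The photoreceptor gene Rpgrip1 fell by 3.62 ± 0.26 (SE), though its 4 probe sets ran from -3.62 to 0.32. Slc4a3, an anion exchanger gene near background in ESC (5.26), was at 7.49, 7.70, 8.75, 8.59 and 9.47 in the gPS arrays against 5.08, 5.19 and 5.31 in the ESC_like arrays, and its second probe set gave 0.85. Nod1, a sensor of bacterial cell walls, rose by 2.75 ± 0.29, Zfp874a by 2.92 ± 0.16 and 2610528J11Rik by 3.37 ± 0.35 (SE). AA467197 rose by 2.75 ± 0.48 (SE) with gPS replicate 1 near the ESC_like level. The fatty acid transporter gene Slc27a2 was at 7.81 ± 0.46 in gPS cells, close to ESC at 8.31 and GSC at 7.45, against 5.21 ± 0.16 in ESC_like cells (SD). Prune2 rose by 2.84 ± 0.28 (SE) at 1 probe set, while its 4 probe sets ran from -1.72 to 2.84.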

How the data were processed

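Gene expression was measured on 1 Affymetrix array per sample, in 20 samples. Per the submitters' processing notes, the authors summarised probes by RMA, and the deposited values are log2 intensities. Whether all arrays were normalized jointly is not given in the sources used here. Of 45101 probe sets, 64 controls, 932 with several gene symbols and 9160 with none were set aside. For 34741 probe sets the symbol was taken from RefSeq by gene ID, whether or not it changed. Each of 18193 genes took its probe set with the highest mean. Groups came from the titles. limma 3.58.1 (R 4.3.3) fitted 6 group means to all 20 arrays, after a test on simulated data. Single values were compared by exact permutation of 5 against 3 arrays (scipy 1.17.1). Promoters came from RefSeq (GRCm38.p6).

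Named genes were a fixed set, up to 5 called and 3 uncalled members of each of 43 lists, the largest rises and falls, and the most variable genes. The largest rises and falls were taken only from called genes with a group mean above 7 and no overlap between the groups. Their lack of overlap was thus set by that rule. Members and lists were chosen with earlier results of these data known. Alternatives changed normalization, centring, weights, the spread, the probe set rule, dim genes, thresholds, the treatment of genes high in MEF, replicate block and the arrays used.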

Additional observations from a re-analysis of the deposited data

Results flagged for a closer look

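In 20 of the tested values of the text, 154 genes and the measures per array, 1 gPS array stood far from the other 4 by Dixon's test, whose 95% threshold lets chance flag about 1 in 20 groups. Replicate 1 stood apart in 11 of these genes. It was below the other gPS arrays for Dppa3 at 7.62, Bmi1 at 5.04, Baiap2l1 at 6.77 and Plac8 at 8.76. It stood apart also for Klf4 at 11.72, Esrrb at 9.53, Stat3 at 9.06, Syce1 at 7.05, Mirg at 5.53, Inhbb at 7.49 and Ngfr at 7.42. Replicate 2 stood apart for Xist at 7.41, Osmr at 6.74, Grb10 at 9.23, C1qb at 5.33, Mgst1 at 7.46 and Pou3f1 at 4.66, and its share of the MEF level was the highest of its group at 5.36%. Replicate 4 stood apart for Psmb8 at 5.67 and Eda2r at 6.05. All levels are log2 intensities, and the ESC_like group, with 3 arrays, was not tested in this way.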

How the results depend on the processing

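The counts of genes higher and lower in gPS cells, 202 and 680, moved most with the fold threshold and the handling of fibroblast genes. They were 838 and 1655 (2493 in all) at 1.5-fold, 25 and 100 (125) at 4-fold, and 382 and 1486 (1868) over probe sets. Without genes high in MEF, 535 were called, 336 of them lower, and 448 were lower when genes were marked by NSC. With the MEF share subtracted 354 were higher and 448 lower. Without gPS replicates 1 and 2, 361 were higher. Leaving out 1 array gave 842 to 943 called genes. The share of the MEF level as a covariate left 0 higher and 2 lower genes (2 in all), since it separates the groups completely. The smaller designs cannot reach p = 0.05: the difference in MEF share ran from -9.14 to -8.10 percentage points (exact p 0.0571 to 0.0952) and that in r with ESC from 0.0063 to 0.0083 with 1 array left out. The difference in r turned to -0.0027 without genes high in MEF.

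Of the 123 called genes named here 113 kept their call in all 8 fits without 1 array. Averaging probe sets changed 24 calls, the subtraction 13, and quantile normalization 2. With the MEF share as covariate these differences turned sign, and none passed the test: Meg3 0.19, Xist 0.81, Eif2s3y 1.54, Col1a1 0.27, Ccnd2 0.285, Pmel 0.34, Osmr 3.07, Grb10 2.35, Uty 0.25, Col5a2 0.77, Lyz2 3.08, Ctss 3.04, C1qb 1.89, Tyrobp 1.46, C1qa 1.23, Kitl 0.59, B2m 1.34, Egln3 -2.09, Slc16a3 -0.96, Bnip3 -0.45, Mgst1 0.45, Gpx8 1.14, Cdh11 1.70 and Lyz1 4.46. The subtraction turned Col1a1 to 0.35, Lox to 0.26 and Gpx8 to 0.99, and leaving out probe sets shared between transcripts turned Mgst1 to 0.11 and Lyz1 to 0.0702. Replicate numbers did not pair the arrays: deviations of arrays with the same number correlated at 0.13, 0.27 and -0.01. A replicate block gave 146 higher and 688 lower genes and changed 12 of the 123 calls. The number of arrays, the signal near background, and the feeder RNA limit the precision.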
